A study of Mus musculus with 24 samples.

Results

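The cerebellum and the forebrain of the same wild-type (WT) mice were compared at 3 months of age. The members were chosen by their labels (genotype, age and region), and they are 6 of the 24 libraries of the series, 1 from each region of 3 animals. Of the 23443 genes in the table, 14316 passed a filter on low counts and were tested. The study made ΔLYST-B6 mice, a model of Chediak-Higashi syndrome that lacks most of Lyst, and sequenced polyadenylated RNA from 2 brain regions of ΔLYST-B6 and WT males. Tissue was the right cerebellar hemisphere and the right forebrain, which the labels call cortex, frozen from untreated mice. By the paper's methods, animals were killed by a lethal injection of tribromoethanol. The WT animals are on the C57BL/6J background, and each of the 3 label prefixes was taken as a separate mouse, although 2 of them share a mouse number. Other groups served only to ask whether the regional difference recurs: 3 WT mice of 18 months, 3 ΔLYST-B6 mice of 3 months and 3 ΔLYST-B6 mice of 18 months. The ΔLYST-B6 line comes from a single founder, edited with CRISPR/Cas9 in a zygote of 129S1/SvImJ and C57BL/6J parents and then bred to C57BL/6J, so it is a single deletion allele.

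The cerebellum arises from the front of the hindbrain, under the control of transcription factors such as the Engrailed proteins, and its cortex is built around very numerous glutamatergic granule cells and a single layer of GABAergic Purkinje cells. The forebrain arises from tissue that expresses the Dlx, Emx and Lhx factors, and it holds the glutamatergic neurons of cortex and hippocampus, the GABAergic projection neurons of the striatum, and deeper nuclei of thalamus and hypothalamus. Glia and vessels occur in both, while some forms, such as the Bergmann glia that span the molecular layer beside Purkinje cells, occur only in the cerebellum.

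Values are given as CPM (counts scaled by library size with TMM factors) for animals 1, 2 and 3 in that order, and log2 fold changes are cerebellum over forebrain, so negative values mean a lower level in the cerebellum. A gene was called at an adjusted p at or below 0.05 in edgeR's quasi-likelihood test, paired by animal and adjusted over all 14316 genes. Defining markers of the labelled tissue were found in all 6 libraries. Emx1, a homeodomain factor of the cerebral cortex, had 24.7, 22.6 and 29.4 CPM in the forebrain and 0.422, 1.14 and 0.329 CPM in the cerebellum. Engrailed 2 (En2), which patterns the midbrain-hindbrain border and persists in granule cells, had 154, 125 and 121 CPM in the cerebellum and 2.65, 2.43 and 2.19 CPM in the forebrain. The regions did not overlap in either gene, with a log2 difference of −5.33 (standard error 0.42, adjusted p = 4.45e-04) for Emx1 and a log2 difference of 5.77 (standard error 0.10, adjusted p = 3.03e-09) for En2. The 15 marker genes for the brainstem, of which 13 did not pass the filter on low counts, summed to 1.04, 3.88 and 8.27 CPM in the cerebellum and 2.95, 1.94 and 3.07 CPM in the forebrain, with the cerebellum of animal 3 the highest. Among them the noradrenaline transporter Slc6a2 had 0, 0.277 and 3.18 CPM in the cerebellum and 1 count over the 3 forebrains, and was not tested.

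Single libraries stood apart in genes of neighbouring tissue, and these were looked for after the values were seen, as tested genes at least 3-fold above or below both other libraries of the region with at least 5 CPM in the highest. Transthyretin (Ttr), the carrier of thyroid hormone that choroid plexus secretes, had 2422, 2648 and 35.2 CPM in the cerebellum and 898, 956 and 598 CPM in the forebrain. The ion channel subunit Kcne2, also of choroid plexus, had 16.2, 18.8 and 0.256 CPM in the cerebellum and 4.797, 4.21 and 3.15 CPM in the forebrain. In both genes the cerebellum of animal 3 was the lowest library, while those of animals 1 and 2 exceeded every forebrain library. Together, the 8 choroid plexus genes, all tested, summed to 3757, 4067 and 338 CPM in the cerebellum and 1543, 1574 and 1154 CPM in the forebrain, with Ttr the most abundant except in the cerebellum of animal 3, where Enpp2 was, and 35 genes in all stood lower in the cerebellum of animal 3. Of these 35 genes, Kpna7 was low in both regions of animal 3. It had 8.98, 14.4 and 0.0732 CPM in the cerebellum and 14.4, 15.4 and 0.0398 CPM in the forebrain. The cerebellum of animal 2 stood lower in 30 genes, among them the vesicular glutamate transporter Slc17a6 with 55.4, 10.8 and 83.4 CPM in the cerebellum and 66.8, 54.2 and 32.7 CPM in the forebrain. Lhx9, a LIM-homeodomain factor, had 11.6, 1.25 and 17.7 CPM in the cerebellum and 4.25, 5.51 and 2.31 CPM in the forebrain. The thalamic and midbrain factor Tcf7l2 had 32.1, 7.55 and 57.9 CPM in the cerebellum and 19.4, 23.5 and 5.30 CPM in the forebrain, so the low values lay in the cerebellum of animal 2 and in the forebrain of animal 3.

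That same cerebellar library of animal 2 stood higher in 18 genes, among them the interferon targets Irf7, Ifit1, Ifit3, Isg15, Rsad2, Mx2, Bst2, Oasl2 and Oas1b. The interferon regulatory factor Irf7 had 2.23, 25.1 and 3.88 CPM in the cerebellum and 1.95, 4.53 and 3.27 CPM in the forebrain. Ifit3, an RNA-binding antiviral protein, had 25.8, 100 and 14.9 CPM in the cerebellum and 17.1, 16.96 and 12.1 CPM in the forebrain. Oas1b, of the oligoadenylate synthetase family that senses double-stranded RNA, had 0.653, 9.29 and 0.878 CPM in the cerebellum and 0.250, 0.688 and 0.438 CPM in the forebrain. In each of these 3 genes the cerebellum of animal 2 was the highest of all libraries. In the forebrain, animal 1 stood higher in 5 tested genes: growth hormone (Gh), the hypothalamic peptides Avp and Oxt, and the cerebellar transcripts Cbln3 and Cnpy1. The hypothalamic peptides Hcrt (14.9, 0.364 and 0.239 CPM in the forebrain) and Pmch (20.1, 1.62 and 0.0797 CPM, with 58.1% of its exonic length overlapping Parpbp), which did not pass the filter on low counts, were highest there too. Gh, a product of the pituitary, had 55.3, 1.13 and 2.19 CPM in the forebrain and 1.69, 0.208 and 1.90 CPM in the cerebellum, so only the forebrain of animal 1 had a clear level. Results that rest on these genes are given below with the libraries that carry them, and the part of tissue borders in them was not tested.

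**Figure D1:**
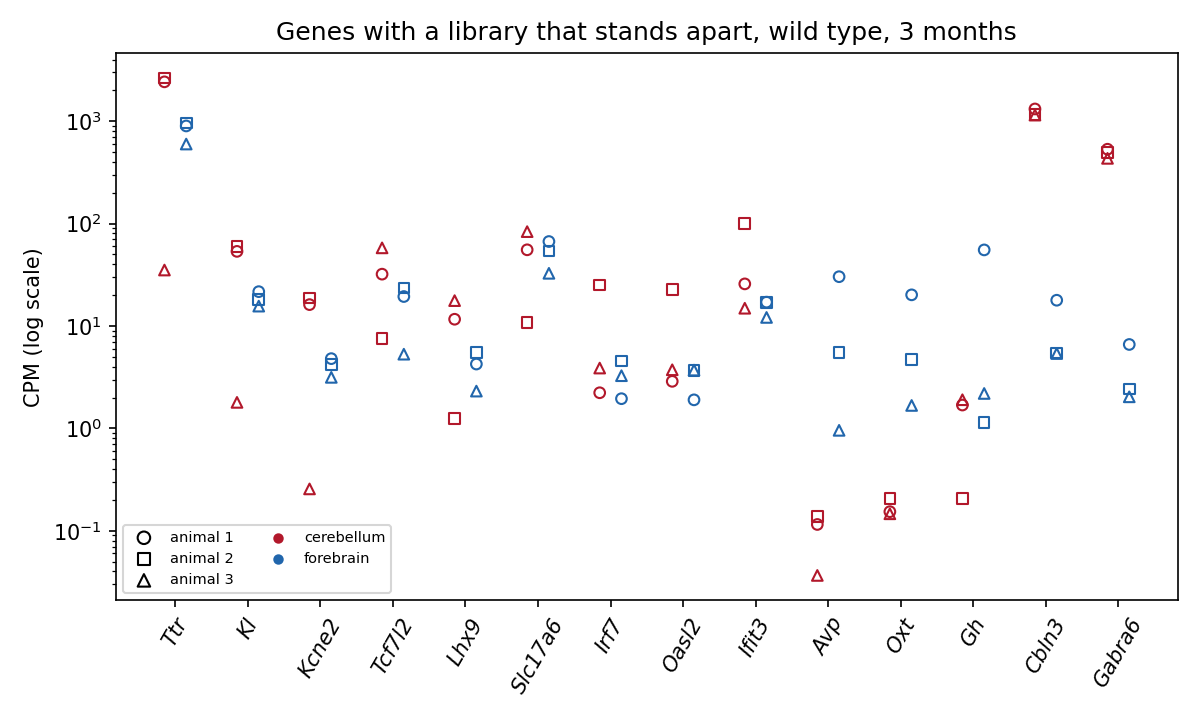
Genes in which single libraries stood apart. Each symbol is 1 library, with the animal given by shape and the region by colour, and the axis shows CPM on a log scale.

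The regions differed in most genes, mostly by less than 2-fold. The gene lists used below were chosen with earlier results of these data known, so their counts and medians are description only. The cerebellum was higher in most tested genes of granule and Purkinje cells and in most tested factors that pattern the hindbrain. It was lower in most tested genes of cortex, striatum and hypothalamus. Most microglial transcripts, those of complement C1q among them, were lower in the cerebellum, whereas most myelin genes were not called in either direction. Receptor and channel families split by subunit, so that most families had members on both sides. Whether fewer cells of a type or less RNA per cell gives a lower value cannot be told apart in tissue RNA.

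In all, 8492 of 14316 genes (59.3%) were called, 4114 higher (28.7%) and 4378 lower (30.6%) in the cerebellum. The counts of calls in the lists below are to be read beside these shares. Libraries of the 2 regions did not overlap in 9488 of the 14316 genes, so absence of overlap in a named gene is common too. Some genes are in more than 1 list, so the lists are not independent of each other. The median log2 fold change over all genes tested was −0.01, and the median size of a change was 0.45, or 0.75 among called genes. Of the called genes, 5305 differed by less than 2-fold. A 4-fold difference was reached by 462 genes higher (3.23%) and 774 lower (5.41%), and all 1236 had the same sign in each of the 3 animals, but with at least 10 counts in every library, which drops genes low in 1 region, these were 272 and 458. The sign was also the same in all 3 animals in 8470 of the called genes and in 10961 of all genes tested. Differences of at least 16-fold were found in 90 genes higher and 158 lower. The 95% interval of the log2 fold change lay within 0.5 of 0 for 4262 genes (29.8%), of which 939 were also called, and 2501 genes were neither called nor close. The first principal component held 84.6% of the variance and separated the regions, and the second held 5.65%. Scaling by library totals alone moved the median of all genes by 0.11 (log2), which changed the share of calls that were higher from 48.4% to 58.3%. Library totals without the 10 most abundant genes, also without TMM factors, gave nearly the same, a move of 0.10 and a share of 58.1%, so the balance between the directions depends on the scaling, while no gene changed to the opposite call.

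**Figure D2:**
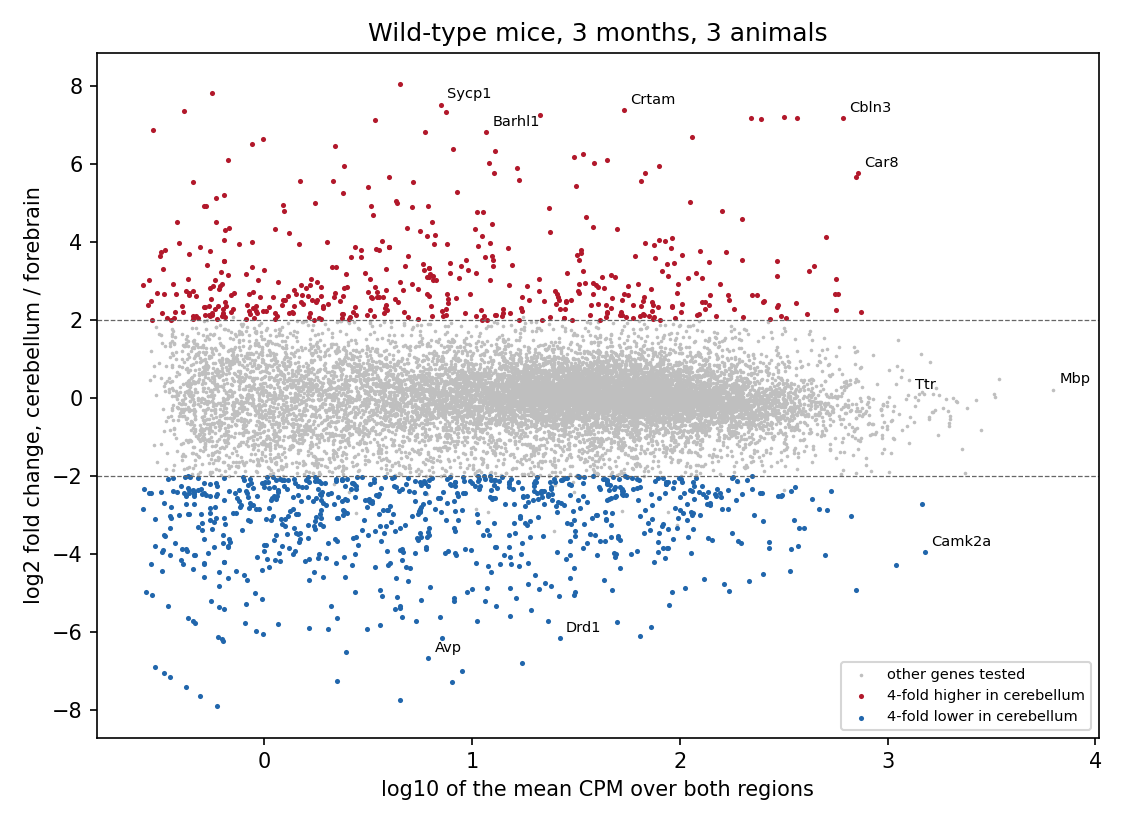
Log2 fold change between cerebellum and forebrain against the mean level, for every gene tested in 3 WT mice at 3 months. Colours mark called genes with a difference of at least 4-fold, and dashed lines mark that difference.

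The 15 largest differences towards the cerebellum, among called genes without overlap and with at least 10 CPM, ranged from 6.27 to 7.52 (log2) and included 4 genes of the granule cell list and 3 of the Purkinje cell list. The cerebellin Cbln3, secreted by granule cells, had 1316, 1168 and 1147 CPM in the cerebellum and 17.8, 5.47 and 5.38 CPM in the forebrain. Fat2, a large protocadherin of granule cells and their parallel fibres, had 686, 777 and 726 CPM in the cerebellum and 9.54, 3.12 and 3.75 CPM in the forebrain. Gabra6, the GABA-A receptor subunit of mature granule cells, had 532, 498 and 433 CPM in the cerebellum and 6.60, 2.43 and 2.03 CPM in the forebrain. The choice of these 15 required all cerebellar libraries to lie above all forebrain libraries. Among the forebrains animal 1 was the highest in each of the 3 genes. Their tests gave a log2 difference of 7.18 (standard error 0.54, adjusted p = 0.00338), a log2 difference of 7.17 (standard error 0.55, adjusted p = 0.00400) and a log2 difference of 7.16 (standard error 0.39, adjusted p = 6.46e-04). Without replicate 2, with 2 animals left, Cbln3 and Fat2 were not called, at 6.93 (adjusted p = 0.0907, over the alternatives 4.26e-49 to 0.0907) and 6.85 (adjusted p = 0.0709, over the alternatives 4.23e-43 to 0.0709). Crtam, an immunoglobulin-family receptor best known from T cells, had 114, 112 and 94.1 CPM in the cerebellum and 1.15, 0.364 and 0.478 CPM in the forebrain. Nrk, a kinase of the germinal centre kinase family, had 37.97, 47.9 and 40.6 CPM in the cerebellum and 0.350, 0.243 and 0.239 CPM in the forebrain. Neither gene overlapped between regions, as the choice required, and their log2 fold changes were 7.38 (adjusted p = 3.86e-07) and 7.25 (adjusted p = 6.69e-09). The synaptonemal complex gene Sycp1, known from meiosis, had 10.3, 18.9 and 13.2 CPM in the cerebellum and 0.150, 0.0405 and 0.0398 CPM in the forebrain, or 5 counts in all forebrains, and the largest value of the 15, 7.52 (adjusted p = 2.54e-07). The others were the desmosomal plakophilin Pkp3 (7.35), Cnpy1 (7.21), Pcp2 (7.17), Barhl1 (6.82), the homeodomain factor Lbx1 (6.82), Ppp1r17 (6.70), Skor2 (6.38), the transcript Gm13944 (6.32) and the bHLH repressor Hes3 (6.27). Of these, Cnpy1 was not called without replicate 2, at 6.76 (adjusted p = 0.0683, over the alternatives 8.92e-34 to 0.0683), nor without replicate 3.

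Of the 11 granule cell genes 10 were tested, and all 10 were called higher, 9 of them at least 4-fold, with a median of 4.89 against −0.01 over all genes. Summed over the list, the levels were 6753, 6961 and 6178 CPM in the cerebellum and 441, 393 and 380.1 CPM in the forebrain. Cbln1, which granule cells release at their synapses with Purkinje cells, had 1286, 1513 and 1325 CPM in the cerebellum and 36.4, 25.6 and 21.2 CPM in the forebrain. Grin2c, an NMDA receptor subunit of mature granule cells, had 713, 832 and 732 CPM in the cerebellum and 69.0, 81.6 and 88.1 CPM in the forebrain. Barhl1, a homeodomain factor of granule cells, had 22.5, 21.5 and 25.6 CPM in the cerebellum and 0.150, 0.243 and 0.199 CPM in the forebrain. None of these overlapped, with log2 fold changes of 5.66 (adjusted p = 3.06e-06), 3.26 (adjusted p = 1.47e-08) and 6.82 (adjusted p = 1.44e-08). The smallest difference of the list was in Gabrd, the extrasynaptic GABA-A subunit that is also present in forebrain neurons, at 1.47 (adjusted p = 9.96e-07). Neurod1 was not tested, with 28 counts in the 3 cerebella and 0 in the forebrains.

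Of the 16 Purkinje cell genes 14 have a row and were tested, and 13 were called higher, 11 of them at least 4-fold, with a median of 2.94. Car8, a carbonic anhydrase-related protein that binds the IP3 receptor, had 1399, 1527 and 1311 CPM in the cerebellum and 32.3, 23.3 and 22.9 CPM in the forebrain. Ppp1r17, a phosphatase inhibitor under cyclic GMP control, had 218, 251 and 209 CPM in the cerebellum and 3.45, 1.90 and 1.39 CPM in the forebrain. Skor2, a corepressor needed for Purkinje cell development, had 19.1, 14.2 and 14.6 CPM in the cerebellum and 0.3997, 0.0810 and 0.120 CPM in the forebrain. These were without overlap, at 5.77 (adjusted p = 1.10e-08), 6.70 (adjusted p = 1.50e-05) and 6.38 (adjusted p = 2.00e-07). Pcp2, a regulator of G proteins, had 395, 529 and 387 CPM in the cerebellum and 4.797, 2.15 and 2.35 CPM in the forebrain, a log2 difference of 7.17 (adjusted p = 4.91e-04), but 51.5% of its exonic length overlaps Pet100, so its counts are uncertain. The IP3 receptor Itpr1 had 2139, 1421 and 1426 CPM in the cerebellum and 629.6, 499.98 and 615 CPM in the forebrain, a difference of 1.49 (adjusted p = 4.69e-06). Calbindin (Calb1), a calcium buffer, gave 2.27 (adjusted p = 2.05e-07), and Pcp4, a calmodulin regulator shared with striatum and cortex, gave only 0.32 (adjusted p = 0.0179) and was not called without replicate 2, at 0.25 (adjusted p = 0.0664, over the alternatives 0.00223 to 0.0664). The transcription factor Foxp2 was the only member called lower, with 12.2, 6.13 and 16.4 CPM in the cerebellum and 28.1, 23.2 and 23.7 CPM in the forebrain. Its regions did not overlap, the lowest value was in the cerebellum of animal 2, and the log2 fold change was −1.20 (adjusted p = 0.0247), or −1.20 (adjusted p = 0.0730, over the alternatives 2.25e-06 to 0.0730) without replicate 1.

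All 4 Bergmann glia genes were called higher, with a median of 1.36. Gdf10, a ligand of the BMP family, had 178, 197 and 133 CPM in the cerebellum and 12.8, 12.1 and 10.2 CPM in the forebrain. Slc1a3, the glutamate transporter that Bergmann glia hold at a high level, had 955, 1012 and 869 CPM in the cerebellum and 528, 572 and 539 CPM in the forebrain. Neither overlapped, at 3.84 (adjusted p = 7.50e-09) and 0.79 (adjusted p = 3.52e-05). The fatty acid binding protein Fabp7 overlapped between regions, with 38.6, 114 and 92.2 CPM in the cerebellum and 29.6, 60.6 and 37.5 CPM in the forebrain, and the paired test gave 0.88 (adjusted p = 0.00883) against 0.94 (adjusted p = 0.191, over the alternatives 1.91e-07 to 0.191) with no block for the animal. Markers chosen for cerebellar interneurons and unipolar brush cells split, with 3 of 8 called higher and 4 lower (median −0.44). The glycine transporter Slc6a5, of Golgi cells and other glycinergic neurons, had 26.5, 20.7 and 24.1 CPM in the cerebellum and 0.650, 0.324 and 0.159 CPM in the forebrain. Eomes, a T-box factor of unipolar brush cells, had 14.4, 15.1 and 7.83 CPM in the cerebellum and 1.25, 4.17 and 2.39 CPM in the forebrain. Both were without overlap and called higher, at 6.02 (adjusted p = 3.66e-07) and 2.27 (adjusted p = 0.00345), while the synaptic ligand Nxph1 (−1.45) and the sorting receptor Sorcs3 (−1.22), which forebrain neurons share, were lower.

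Of the 20 patterning factors of cerebellum and hindbrain 16 were tested, of which 14 were called higher, 13 of them at least 4-fold, with a median of 4.52. Zic1, a zinc finger factor of granule cells, had 1005, 1061 and 803 CPM in the cerebellum and 65.5, 66.9 and 36.9 CPM in the forebrain. Pax6, a paired-box factor of granule cells, had 141, 177 and 129 CPM in the cerebellum and 15.8, 17.1 and 13.7 CPM in the forebrain. Lhx1, a LIM-homeodomain factor of Purkinje cells, had 67.4, 65.7 and 53.3 CPM in the cerebellum and 1.499, 1.94 and 0.917 CPM in the forebrain. All 3 were without overlap, at 4.12 (adjusted p = 1.94e-08), 3.26 (adjusted p = 9.41e-09) and 5.43 (adjusted p = 1.14e-08), and the forebrain levels of Zic1 and Lhx1 were lowest in animal 3. The homeodomain factor Uncx gave 6.10 (adjusted p = 2.91e-08), Pax2, of interneuron progenitors, 5.01 (adjusted p = 4.54e-06), and En1, the second Engrailed gene, 5.26 (adjusted p = 1.52e-05). Tfap2a and Tfap2b, AP-2 factors of GABAergic lineages, gave 4.92 and 4.88. Gbx2, which sets the hindbrain side of the midbrain-hindbrain border in the embryo, was called lower in the adult cerebellum, with 1.46, 0.970 and 1.94 CPM in the cerebellum and 6.70, 8.95 and 5.26 CPM in the forebrain, a log2 difference of −2.25 (adjusted p = 6.38e-04), but 43.5% of its exonic length overlaps D130058E05Rik, so its counts are uncertain. Lhx9, low in the cerebellum of animal 2, was not called (adjusted p = 0.638), but without replicate 2 it was, at 2.20 (adjusted p = 2.01e-04, over the alternatives 2.01e-04 to 0.958).

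Of the 15 patterning factors of the forebrain 13 were tested, and all 13 were called lower in the cerebellum, each at least 4-fold, with a median of −5.43. Dlx6, a homeodomain factor of GABAergic forebrain lineages, had 15.4, 16.7 and 15.7 CPM in the forebrain and 0.0384, 0.139 and 0.110 CPM in the cerebellum. Tbr1, a T-box factor of deep cortical layers, had 87.8, 87.1 and 118 CPM in the forebrain and 1.42, 2.32 and 1.68 CPM in the cerebellum. The regions were far apart in each animal, at −7.29 (adjusted p = 4.53e-08) and −5.74 (adjusted p = 1.41e-07). Dlx5, beside Dlx6 on chromosome 6, had 3 counts over the 3 cerebella and 627 over the forebrains, a ratio of 246 with a counting interval of 83.9 to 1197 in forebrain over cerebellum. Fezf2 (−5.43), which marks subcortical projection neurons, was lower as well. Otx1 was not tested, with 0 counts in the cerebella and 12 in the forebrains.

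The 15 largest differences towards the forebrain, by the same rule, ranged from −5.43 to −7.29 and joined these factors with genes of striatal and cortical neurons. Gpr6, an orphan receptor of striatal neurons of the indirect pathway, had 16.3, 18.3 and 18.6 CPM in the forebrain and 0.307, 0.0346 and 0.0732 CPM in the cerebellum. Drd1, the dopamine receptor of the direct pathway, had 51.1, 48.0 and 57.1 CPM in the forebrain and 0.576, 0.520 and 1.10 CPM in the cerebellum. Kcnv1, a silent potassium channel subunit, had 134, 102 and 145 CPM in the forebrain and 1.57, 1.97 and 1.94 CPM in the cerebellum. By that rule none of the 3 overlapped, at −7.002 (adjusted p = 1.31e-05), −6.16 (adjusted p = 1.16e-08) and −6.10 (adjusted p = 6.69e-09). Vasopressin (Avp), a hypothalamic hormone, gave −6.66 (adjusted p = 1.25e-05), although its forebrain values of 30.3, 5.51 and 0.956 CPM spread widely between animals. Others were the zinc finger factor Sp9 (−6.15), the non-coding Dlx6os1 (−5.71) and Dlx1as (−5.62), and the transcripts Gm11549 (−6.78) and C730002L08Rik (−5.72), beside Dlx6, Tbr1 and Fezf2. Dlx1as overlaps Dlx1, which has no row in the table, in part of its exons, and since the strand of counting is not stated, its counts are uncertain.

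Of 9 genes of forebrain excitatory neurons 8 were called lower and 1 higher, with a median of −2.86. Camk2a, the calcium-dependent kinase of excitatory synapses, had 2805, 2815 and 2899 CPM in the forebrain and 201, 158 and 197 CPM in the cerebellum. Neurogranin (Nrgn), a calmodulin-binding protein of dendrites, had 1932, 1944 and 2329.6 CPM in the forebrain and 124, 48.2 and 192 CPM in the cerebellum. Slc17a7, the vesicular glutamate transporter of both cortical and granule cells, had 1286, 1367 and 1622 CPM in the forebrain and 628, 787 and 672 CPM in the cerebellum. The regions did not overlap, at −3.95 (adjusted p = 1.03e-08), −4.28 (adjusted p = 0.0135) and −1.03 (adjusted p = 2.73e-05), and Nrgn was lowest in the cerebellum of animal 2. Neurod2, a bHLH factor that granule cells also express, was the member called higher, at 0.82 (adjusted p = 2.84e-04). In the deep-layer list all 8 genes were lower (median −3.99), and in the upper-layer list 4 of 5 tested (median −3.69). Crym, a thyroid hormone binding protein, had 84.6, 106 and 84.6 CPM in the forebrain and 2.99, 3.05 and 2.93 CPM in the cerebellum, and Lamp5, a membrane protein of upper layers and interneurons, had 191, 149.7 and 195 CPM in the forebrain and 3.92, 7.07 and 6.15 CPM in the cerebellum. Both were without overlap, at −4.93 (adjusted p = 4.43e-09) and −4.96 (adjusted p = 1.70e-04). Rasgrf2, an exchange factor of upper layers, was just above the threshold, at −2.92 (adjusted p = 0.0502), with 24.7, 7.24 and 37.7 CPM in the cerebella, and was called without replicate 2, at −2.38 (adjusted p = 1.12e-06, over the alternatives 1.12e-06 to 0.0752).

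In the hippocampal list 7 of 8 genes were lower and Prox1, a homeodomain factor of dentate granule cells, was higher (log2 0.55, adjusted p = 2.85e-04), for a median of −2.29. Rgs14, a G protein regulator of area CA2, had 64.4, 54.7 and 63.3 CPM in the forebrain and 2.00, 1.97 and 1.83 CPM in the cerebellum, without overlap and at −4.97 (adjusted p = 6.69e-09). Of the 14 striatal genes 13 were tested and 11 were called lower, 8 of them at least 4-fold (median −3.41). Adora2a, the adenosine receptor of the indirect pathway, had 76.9, 78.2 and 94.96 CPM in the forebrain and 3.15, 3.64 and 3.04 CPM in the cerebellum. Ppp1r1b (DARPP-32), a phosphatase inhibitor under dopamine control, had 512, 478 and 554 CPM in the forebrain and 196, 225 and 166 CPM in the cerebellum. Neither overlapped, at −4.66 (adjusted p = 9.41e-09) and −1.40 (adjusted p = 3.88e-05), so Ppp1r1b kept a clear level in the cerebellum. The dopamine receptor Drd2 and the tachykinin Tac1 had log2 fold changes of −3.41 and −3.52 without overlap, but were not called (adjusted p = 0.0586 and 0.0695). Their cerebellar levels were lowest in animal 2, at 5.87, 0.832 and 7.87 CPM for Drd2 and 6.49, 1.49 and 12.6 CPM for Tac1, beside the low values of Slc17a6 and Tcf7l2 in that library. Without replicate 2 Drd2 was called, at −2.75 (adjusted p = 7.83e-32, over the alternatives 7.83e-32 to 0.140), and DESeq2's Wald test called Tac1, at −3.73 (adjusted p = 1.76e-05, over the alternatives 1.76e-05 to 0.189). Of 6 interneuron genes tested 5 were lower (median −3.08), among them the transcription factor Lhx6 (log2 −5.21, adjusted p = 1.65e-06) and the peptide Vip (log2 −4.26, adjusted p = 2.17e-06). The receptor kinase Kit, which cerebellar molecular layer interneurons express, was higher, with 185, 177 and 151 CPM in the cerebellum and 43.6, 50.8 and 46.6 CPM in the forebrain, a log2 difference of 1.86 (adjusted p = 2.83e-07).

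The hypothalamic list had 6 of 7 tested genes lower, with a median of −3.93 and animal medians of −3.53, −4.06 and −2.96. Oxytocin (Oxt) had 20.1, 4.70 and 1.67 CPM in the forebrain and 0.154, 0.208 and 0.146 CPM in the cerebellum. Thyrotropin-releasing hormone (Trh) had 12.8, 8.70 and 3.47 CPM in the forebrain and 0.154, 0.243 and 0.146 CPM in the cerebellum. Both were highest in the forebrain of animal 1 and lowest in that of animal 3, and were called at −5.32 (adjusted p = 3.58e-04) and −5.40 (adjusted p = 1.20e-06). The 5 thalamic genes tested had a median of −0.04 and adjusted p from 0.322 to 0.873, with summed levels of 151, 141 and 178 CPM in the cerebellum and 185, 171 and 81.2 CPM in the forebrain. Prkcd, a protein kinase C of thalamic relay neurons and some Purkinje cells, had 72.8, 89.9 and 66.1 CPM in the cerebellum and 97.7, 78.9 and 35.1 CPM in the forebrain, so the regions overlapped (adjusted p = 0.606). In the list for the olfactory bulb 1 of 3 tested genes, the zinc finger factor Sp8, was lower (log2 −6.52, adjusted p = 9.48e-07), and in that for the brainstem 1 of 2, the tryptophan hydroxylase Tph2 (log2 −1.12, adjusted p = 0.0135), which was not called without replicate 1, at −0.91 (adjusted p = 0.0912, over the alternatives 0.00820 to 0.399).

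**Figure D3:**
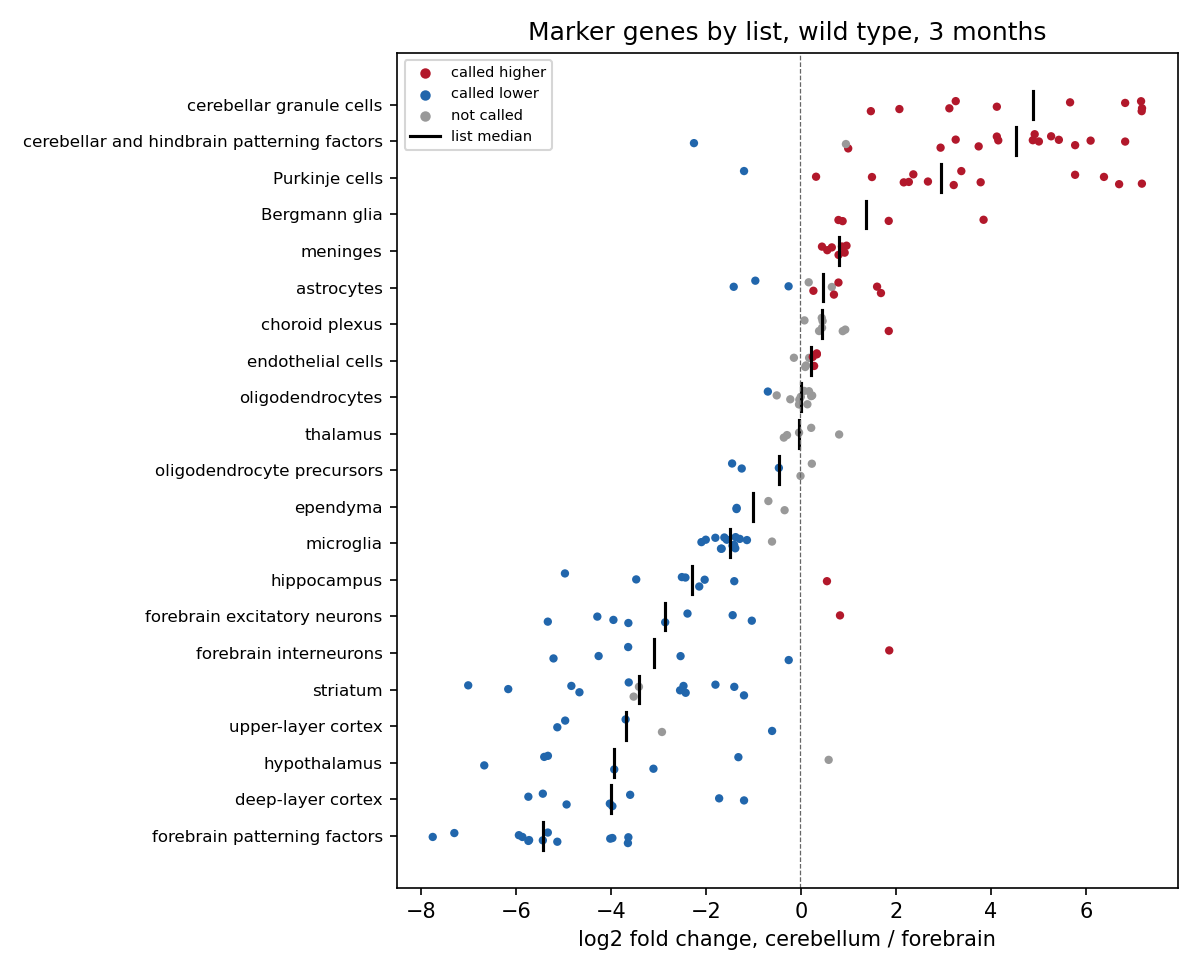
Log2 fold changes of the tested members of lists of markers. Each point is a gene, coloured by its call, the black bar is the median of the list, and the dashed line is the median of all genes.

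Of 14 microglial genes 13 were called lower in the cerebellum, with a median of −1.50 and animal medians of −1.58, −1.62 and −1.34. P2ry12, the receptor through which microglia sense nucleotides, had 42.7, 46.6 and 40.8 CPM in the forebrain and 8.91, 10.3 and 11.3 CPM in the cerebellum. Csf1r, the receptor that keeps microglia alive, had 92.3, 99.8 and 92.3 CPM in the forebrain and 30.7, 26.02 and 33.1 CPM in the cerebellum. Trem2, a lipid receptor of microglia, had 16.2, 19.2 and 14.9 CPM in the forebrain and 5.38, 5.86 and 5.75 CPM in the cerebellum. In all 3 genes each forebrain exceeded each cerebellum, at −2.09 (adjusted p = 3.73e-07), −1.67 (adjusted p = 1.09e-06) and −1.56 (adjusted p = 8.59e-06). The transcription factor Sall1 was the only member not called (log2 −0.61, adjusted p = 0.0919). Summed over the list, the levels were 197, 188 and 222 CPM in the cerebellum and 584, 608 and 553 CPM in the forebrain. In the complement list 6 of 11 genes were lower (median −0.88), among them C1qa (log2 −1.29, adjusted p = 4.55e-06), C1qb (log2 −1.41, adjusted p = 2.39e-06) and C1qc (log2 −1.38, adjusted p = 1.91e-06), the subunits of C1q that microglia make. These C1q genes are members of the microglial list as well. Serping1, the inhibitor of C1, was called higher, with 14.97, 13.2 and 8.16 CPM in the cerebellum and 3.90, 4.94 and 4.06 CPM in the forebrain, a log2 difference of 1.45 (adjusted p = 1.79e-04). C4b, which astrocytes and other glia express, was close in both regions, with 20.8, 27.7 and 20.2 CPM in the cerebellum and 23.2, 23.0 and 21.4 CPM in the forebrain.

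Of 11 myelin genes tested 4 were close in both regions and 1, Mal, was called, lower at −0.70 (adjusted p = 0.0111), and the median was 0.00. Without replicate 1 Mal was not called, at −0.56 (adjusted p = 0.0779, over the alternatives 2.41e-06 to 0.0915). Myelin basic protein (Mbp) had 4426, 7115 and 8943 CPM in the cerebellum and 4906, 6538 and 5602 CPM in the forebrain. Mag, the myelin-associated glycoprotein, had 286, 387 and 571 CPM in the cerebellum and 281, 389 and 354 CPM in the forebrain. The regions overlapped in both, and the cerebellar values went in order from animal 1, the lowest, to animal 3, with summed levels of the list of 7416, 11315 and 14579 CPM in the cerebellum and 8758, 11557 and 10015 CPM in the forebrain. Mag was called without replicate 2, at 0.38 (adjusted p = 0.0129, over the alternatives 0.0129 to 0.706). Of 5 genes of oligodendrocyte precursors 3 were lower (median −0.46), with the receptor kinase Pdgfra at 20.8, 20.6 and 26.4 against 56.4, 66.4 and 61.4 CPM, a log2 difference of −1.45 (adjusted p = 2.61e-06). Astrocyte genes split, with 5 of 10 called higher and 3 lower (median 0.46). Slc1a2, the main glutamate transporter of forebrain astrocytes, had 1314, 1502 and 1694 CPM in the forebrain and 549, 509 and 631 CPM in the cerebellum. S100b, a calcium-binding protein, had 395, 453 and 403 CPM in the cerebellum and 148, 138 and 106 CPM in the forebrain. Neither overlapped, and they went in opposite directions, −1.41 (adjusted p = 1.45e-06) and 1.68 (adjusted p = 1.56e-06), while the intermediate filament Gfap was not called (log2 0.16, adjusted p = 0.155), but was with library totals alone, at 0.27 (adjusted p = 0.0288, over the alternatives 0.0288 to 0.486).

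All 7 meningeal genes were called higher (median 0.79), as were 4 of 8 endothelial genes (median 0.21) and 2 of 3 erythrocyte genes (median 0.29). The collagen Col1a1 had 10.9, 22.9 and 14.4 CPM in the cerebellum and 5.496, 12.7 and 8.49 CPM in the forebrain, so its regions overlapped, but each cerebellum exceeded the forebrain of its own animal (log2 0.86, adjusted p = 2.18e-04). With no block for the animal it was not called, at 0.85 (adjusted p = 0.106, over the alternatives 7.94e-06 to 0.106). Of the ependymal genes 2 of 4 were lower (median −1.02), with Foxj1, the master factor of motile cilia, at 142, 107 and 151 against 341, 330.1 and 342 CPM, a log2 difference of −1.36 (adjusted p = 3.26e-06). For the choroid plexus list only the homeodomain factor Otx2, which cerebellar granule cells also express, was called (log2 1.85, adjusted p = 2.01e-04), and the animal medians were 1.33, 1.58 and −2.72. Otx2 had 25.3, 25.8 and 7.87 CPM in the cerebellum and 7.195, 4.90 and 3.31 CPM in the forebrain. The cerebellum of animal 3 was thus the lowest of the cerebella in this gene too. Without animal 3, whose cerebellum stood apart, Ttr gave 1.48 (adjusted p = 1.68e-05), and over the alternatives its adjusted p ranged from 1.68e-05 to 0.975, and Kcne2 and Enpp2 were called there as well, at 1.99 (adjusted p = 4.73e-05, over the alternatives 4.73e-05 to 0.998) and 1.10 (adjusted p = 5.76e-05, over the alternatives 5.76e-05 to 0.955).

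Of 19 GABA-A receptor subunit genes 14 were tested, with 3 called higher, 8 lower and a median of −1.20. The α6 subunit Gabra6 and the δ subunit Gabrd, which combine in extrasynaptic receptors of granule cells, were higher, Gabrd with 238, 252 and 211 CPM in the cerebellum and 88.9, 78.4 and 85.2 CPM in the forebrain. Gabra5, the α5 subunit of hippocampal and cortical neurons, had 84.3, 87.3 and 85.7 CPM in the forebrain and 8.25, 4.12 and 10.03 CPM in the cerebellum. Gabra3 had 142, 114 and 125 CPM in the forebrain and 22.6, 11.6 and 25.4 CPM in the cerebellum. Both lay without overlap in the other direction, at −3.57 (adjusted p = 0.00210) and −2.73 (adjusted p = 4.96e-04), and the cerebellum of animal 2 was the lowest in each. The β2 subunit Gabrb2 was not called, with 279, 237 and 262 CPM in the cerebellum and 301, 253 and 313 CPM in the forebrain, whereas the β1 subunit Gabrb1 was lower (−1.21). Per kilobase of exon, the cerebellar mean was 196 CPM for Gabra6, 81.3 CPM for Gabrd and 40.8 CPM for Gabrb2, and the forebrain means were 1.48, 29.3 and 45.4 CPM.

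Among 15 ionotropic glutamate receptor genes tested 5 were higher and 7 lower (median −0.21). The delta receptor Grid1, common in the forebrain, had 27.6, 19.8 and 31.8 CPM in the cerebellum and 73.9, 73.3 and 76.0 CPM in the forebrain. Its regions did not overlap, at −1.52 (adjusted p = 2.19e-05). The NMDA receptor subunits split, with Grin2c higher (3.26), Grin2a lower (−1.12) and the shared subunit Grin1 not called (log2 −0.15, adjusted p = 0.166). The AMPA receptor subunit Gria3 was lower (−1.19) and Gria1 was not called (log2 −0.21, adjusted p = 0.0953), but without replicate 1 it was lower, at −0.33 (adjusted p = 0.0410, over the alternatives 0.0410 to 0.439). Of 5 metabotropic receptor genes tested 4 were lower and 1 higher (median −1.33), with Grm5 at 22.3, 11.3 and 31.8 against 200.5, 194 and 234 CPM, a log2 difference of −3.36 (adjusted p = 0.00290), and Grm4, the receptor of parallel fibre terminals, at 4.49, 9.18 and 6.48 against 0.849, 0.688 and 1.35 CPM, a log2 difference of 2.78 (adjusted p = 7.59e-05). For synthesis and transport of both transmitters 2 of 13 genes were higher and 6 lower (median −0.34). Gad1, which makes GABA, had 500.1, 414 and 422 CPM in the cerebellum and 459, 449 and 431 CPM in the forebrain, and Slc32a1, which loads it into vesicles, had 209, 177 and 195 CPM in the cerebellum and 198, 205 and 189 CPM in the forebrain. Their regions overlapped, and the log2 fold changes were −0.01 (adjusted p = 0.941) and −0.03 (adjusted p = 0.743). Slc17a8, the third vesicular glutamate transporter, was lower, at −5.07 (adjusted p = 8.15e-07). Among the 4 cerebellins 2 were higher and 1 lower (median 1.72), with Cbln4, a cerebellin of forebrain neurons, at −2.33 (adjusted p = 0.0176), which was not called with no filter on low counts, at −2.30 (adjusted p = 0.0648, over the alternatives 2.37e-12 to 0.0648).

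Of 19 voltage-gated potassium channel genes tested 13 were lower and 5 higher (median −1.13). Kcnc1, the Kv3 channel of fast-spiking cells such as granule and Purkinje cells, had 842, 632 and 732 CPM in the cerebellum and 246, 244 and 263 CPM in the forebrain. Kcnh3, an Elk channel of the forebrain, had 154, 148 and 177 CPM in the forebrain and 6.95, 10.8 and 10.1 CPM in the cerebellum. Neither overlapped, at 1.54 (adjusted p = 1.33e-06) and −4.11 (adjusted p = 1.40e-07). The A-type channel Kcnd2 (1.02) and the axonal Kcna1 (0.93) were higher, and the M-current subunit Kcnq3 (−2.26) lower. All 11 calcium channel genes tested were called, 4 higher and 7 lower (median −0.56). Cacna1a, the P/Q-type pore of Purkinje and granule cells, had 473, 516 and 481 CPM in the cerebellum and 122, 145 and 187 CPM in the forebrain. Cacna2d2, an auxiliary subunit of Purkinje cells, had 208, 202 and 198 CPM in the cerebellum and 69.6, 77.9 and 69.8 CPM in the forebrain. Both were without overlap, at 1.72 (adjusted p = 7.45e-06) and 1.48 (adjusted p = 3.62e-07), while the auxiliary Cacna2d1 (−1.45) and the β subunits Cacnb1 (−2.15) and Cacnb3 (−1.65) were lower. The dopamine and serotonin receptors were lower in 11 of 14 genes (median −2.56), with the serotonin receptor Htr2a at 2.73, 1.04 and 1.54 against 32.5, 23.1 and 30.9 CPM, a log2 difference of −4.08 (adjusted p = 3.50e-07). Drd4, at 1.23, 1.07 and 1.28 against 0.350, 0.567 and 0.677 CPM, was the member called higher (log2 1.16, adjusted p = 0.0269), but not without replicate 1, at 0.92 (adjusted p = 0.129, over the alternatives 0.0130 to 0.129). Neuropeptide genes were lower in 11 of 12 (median −3.58), the largest being prodynorphin (Pdyn), with 48.6, 43.1 and 48.1 CPM in the forebrain and 1.31, 1.25 and 2.42 CPM in the cerebellum, a log2 difference of −4.83 (adjusted p = 2.43e-07).

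Immediate early genes, which neurons transcribe within minutes of activity, were lower in 9 of 12 tested genes and higher in 1 (median −1.997). Arc, a capsid-like protein of dendrites, had 216, 183 and 148 CPM in the forebrain and 21.9, 22.0 and 27.0 CPM in the cerebellum. Npas4, a bHLH factor induced by calcium entry, had 25.8, 33.2 and 31.3 CPM in the forebrain and 4.84, 5.51 and 5.16 CPM in the cerebellum. Egr1, a zinc finger factor, had 254, 192 and 188 CPM in the forebrain and 45.4, 41.6 and 44.6 CPM in the cerebellum. The regions were without overlap, at −2.94 (adjusted p = 4.35e-05), −2.54 (adjusted p = 1.11e-07) and −2.25 (adjusted p = 9.39e-08), and Arc and Egr1 were highest in the forebrain of animal 1. Fos itself overlapped, with 30.1, 30.1 and 15.5 CPM in the cerebellum and 34.3, 31.8 and 28.2 CPM in the forebrain, and was not called (log2 −0.37, adjusted p = 0.0784), although without replicate 2 it was, at −0.50 (adjusted p = 0.00397, over the alternatives 0.00397 to 0.452). Dusp1, a phosphatase of MAP kinases, was not called either (log2 0.25, adjusted p = 0.0768) but was without replicate 3, at 0.43 (adjusted p = 0.00691, over the alternatives 0.00691 to 0.359), and Ier2 was higher, at 22.8, 30.4 and 23.1 against 12.5, 14.1 and 12.2 CPM, a log2 difference of 0.96 (adjusted p = 4.01e-05).

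RefSeq promoters (250 bases before to 50 after the start, build GRCm38.p6) were available for 9 of these genes, 7 of them called lower. There were 19 promoters, 7 of Bdnf, 5 of Egr2 and 1 of each other gene. They were searched on both strands for 3 motifs: the CArG box (CC, 6 bases of A or T, then GG), to which serum response factor binds, the cyclic AMP response element TGACGTCA, to which CREB binds, and its core TGACG. The CArG box was found in 4 promoters, all of Egr2, of which 3 overlap and share 1 box, so these are 2 sites, and occurs in 535 of all 32851 promoters (1.63%) and in 1.31% of those of tested genes. TGACGTCA was found in 1 promoter, that of Dusp1, which was not called, and occurs in 588 of all promoters (1.79%) and in 2.85% of those of tested genes. TGACG, which TGACGTCA contains, was found in 11 promoters, the same 3 of Egr2 among them, and at least once in each of the 9 genes, Fos and Dusp1 included, and occurs in 20.8% of all promoters and in 28.9% of those of tested genes. It was thus the most frequent of the 3 motifs both here and among all promoters, and no enrichment was tested. The promoters of Npas4, Nr4a1 and Fosb, picked among the genes called lower with a single promoter, are shown from 5′ to 3′ to let the matches be seen, with TGACG on either strand in capitals. A match of letters is a description only.
Npas4 (chr19:4989922-4990221, minus strand): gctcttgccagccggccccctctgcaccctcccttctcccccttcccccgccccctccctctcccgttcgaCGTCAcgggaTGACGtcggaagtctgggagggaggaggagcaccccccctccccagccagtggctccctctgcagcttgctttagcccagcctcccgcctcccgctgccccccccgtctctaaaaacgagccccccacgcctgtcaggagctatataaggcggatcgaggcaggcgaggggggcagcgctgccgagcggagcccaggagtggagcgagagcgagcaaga
Nr4a1 (chr15:101266596-101266895, plus strand): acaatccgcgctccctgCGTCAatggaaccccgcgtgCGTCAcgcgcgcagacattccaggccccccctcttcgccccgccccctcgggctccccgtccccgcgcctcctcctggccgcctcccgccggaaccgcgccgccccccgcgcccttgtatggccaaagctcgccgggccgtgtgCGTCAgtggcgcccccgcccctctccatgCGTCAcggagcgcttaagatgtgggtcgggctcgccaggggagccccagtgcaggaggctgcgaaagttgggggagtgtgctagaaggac
Fosb (chr7:19309996-19310295, minus strand): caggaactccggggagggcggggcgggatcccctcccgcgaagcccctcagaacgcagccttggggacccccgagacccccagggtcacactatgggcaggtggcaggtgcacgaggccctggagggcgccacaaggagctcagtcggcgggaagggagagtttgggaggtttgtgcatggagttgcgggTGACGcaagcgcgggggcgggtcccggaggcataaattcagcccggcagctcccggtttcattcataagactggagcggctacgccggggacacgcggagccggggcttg

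Fosb, which encodes a partner of Jun proteins, had 11.7, 9.55 and 8.65 CPM in the forebrain and 1.69, 1.32 and 1.32 CPM in the cerebellum, and Nr4a1, an orphan nuclear receptor, had 113, 94.3 and 88.7 CPM in the forebrain and 37.1, 31.2 and 21.6 CPM in the cerebellum. Both lay without overlap, at −2.78 (adjusted p = 1.66e-06) and −1.74 (adjusted p = 1.00e-06), in the same direction as Npas4. The activity-dependent growth factor Bdnf differed less, with 34.4, 30.6 and 33.5 CPM in the forebrain and 16.6, 15.2 and 17.3 CPM in the cerebellum, a log2 difference of −1.004 (adjusted p = 1.37e-05).

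Lyst, a BEACH-domain regulator of lysosome size and the gene that the study deletes, had 93.5, 84.0 and 84.6 CPM in the cerebellum and 117, 119 and 118 CPM in the forebrain. The cerebella were below all forebrains, with a log2 difference of −0.43 (standard error 0.08, adjusted p = 8.94e-04) in these WT mice. Of the 8 BEACH genes tested 3 were higher and 3 lower (median 0.09), beside 28.7% and 30.6% of all genes, with the autophagy adaptor Wdfy3 higher (278, 231 and 212 against 160.0, 161 and 181 CPM, log2 0.51, adjusted p = 0.00347) and neurobeachin (Nbea) lower (214, 171 and 190.0 against 269, 265 and 298 CPM, log2 −0.53, adjusted p = 5.71e-04). Lysosomal genes were close in both regions in 13 of 20 tested, with a median of 0.02, 4 called higher and 4 lower. Prosaposin (Psap), the precursor of sphingolipid activators, had 2148, 2030.5 and 2065 CPM in the cerebellum and 2110.1, 2084 and 1996 CPM in the forebrain, so the regions overlapped (log2 0.01, adjusted p = 0.907). Tfeb, the transcription factor that drives lysosomal genes, was higher, with 23.0, 32.5 and 28.1 CPM in the cerebellum and 11.1, 16.03 and 13.0 CPM in the forebrain, a log2 difference of 1.06 (adjusted p = 1.36e-05). The proton pump subunit Atp6v1h was lower, at 114, 102 and 115 against 213, 187 and 194 CPM, a log2 difference of −0.84 (adjusted p = 9.93e-06). Pik3c3, the lipid kinase of autophagy, was lower (55.0, 55.1 and 54.6 against 73.3, 68.1 and 68.5 CPM, log2 −0.35, adjusted p = 0.00290), and Btaf1, a regulator of TBP, was not called (81.0, 78.0 and 57.2 against 90.9, 83.0 and 73.9 CPM, log2 −0.21, adjusted p = 0.0506), but was in limma-voom, at −0.21 (adjusted p = 0.0467, over the alternatives 0.0467 to 0.386). Of 25 genes of hereditary ataxia tested 9 were higher, 6 lower and 13 close (median 0.17), beside 28.7%, 30.6% and 29.8% of all genes. The phosphatase subunit Ppp2r2b was lower (58.8, 40.0 and 57.4 against 170.0, 164 and 181 CPM, log2 −1.74, adjusted p = 1.39e-06).

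Reference genes were called in 4 of 11 (median −0.16), among them Ywhaz, an adaptor protein, at 559, 621 and 632 against 1139, 1104 and 1165 CPM, a log2 difference of −0.91 (adjusted p = 1.56e-05). Among the 5 close genes with the narrowest intervals were Ak1, an adenylate kinase with 134, 140.0 and 143 CPM in the cerebellum and 138, 140.4 and 145 CPM in the forebrain, and Eif2s3x, a translation initiation factor with 120.4, 112 and 116 CPM in the cerebellum and 124, 114 and 119 CPM in the forebrain. Their regions overlapped, with log2 fold changes of −0.02 and −0.04. The membrane protein Efr3a (0.02), the ubiquitin-conjugating enzyme Ube2o (log2 −0.18, adjusted p = 0.0498) and the transcript 4833439L19Rik (log2 0.23, adjusted p = 0.0186) had intervals of similar width, and the last 2 were called. Both lost the call without replicate 1, at −0.17 (adjusted p = 0.150, over the alternatives 0.0442 to 0.389) for Ube2o and 0.24 (adjusted p = 0.0756, over the alternatives 0.00245 to 0.0756) for 4833439L19Rik, and Ube2o lost it in 10 of 12 alternatives. Of 404 list genes with a row, 50 had less than 1 CPM in all 6 libraries and 6 had no count, namely Atoh1, Ntng1, Grik1, Kcnq5, Cacna1c and Atm. Some of the 50 are known at high levels in brain, such as the glutamate decarboxylase Gad2 (7 counts over the cerebella and 11 over the forebrains). A low count in this table therefore does not show that a gene is silent, and whether reads were lost in counting was not tested.

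The regional difference recurred for most genes in the other 9 animals, which share no library with these. Of the 8492 genes called, 7367 (86.8%) were called in the same direction in WT mice of 18 months, 6538 (77.0%) in ΔLYST-B6 mice of 3 months and 7310 (86.1%) in ΔLYST-B6 mice of 18 months, and 5842 (68.8%) in all 3 groups. Opposite calls numbered 8, 0 and 30. Of all genes tested in these groups, 8990 of 14303, 7244 of 14127 and 9024 of 14439 were called in either direction. Of the 8492 genes, 8398, 8380 and 8406 were tested there. Of the 1236 genes with a 4-fold difference, 1051 were called in the same direction in all 3 groups. The log2 fold change of Gabra6, 7.16 here, was 7.49 in WT at 18 months, 6.88 in ΔLYST-B6 at 3 months and 7.32 in ΔLYST-B6 at 18 months. That of P2ry12, −2.09 here, was −1.82 in WT at 18 months, −2.01 in ΔLYST-B6 at 3 months and −2.17 in ΔLYST-B6 at 18 months. The 13 microglial genes called here were all called lower in WT at 18 months and in ΔLYST-B6 at 3 months, but in ΔLYST-B6 at 18 months only 8 were, and C1qa (0.41, adjusted p = 4.20e-04), Trem2 (0.39, adjusted p = 0.00167) and Tyrobp (0.33, adjusted p = 0.00601) were called higher there. Of the 6 hypothalamic genes called here 2 were called lower in WT at 18 months, 4 in ΔLYST-B6 at 3 months and 3 in ΔLYST-B6 at 18 months, and Avp (−1.17, adjusted p = 0.580) and Oxt (−0.55, adjusted p = 0.662) were not called in WT at 18 months. Of the 7 meningeal, 4 endothelial and 2 erythrocyte genes called here, 6, 4 and 2 were called higher in WT at 18 months, 0 of each in ΔLYST-B6 at 3 months, and 6, 1 and 1 in ΔLYST-B6 at 18 months. The medians of these lists here were small, at 0.79, 0.21 and 0.29, and ΔLYST-B6 at 3 months had the fewest calls of these groups. Of the 7 complement genes called here 6, 5 and 2 were called in the same direction in these groups, of the 2 ependymal genes 1 in each, and Tph2 in none. Of the 11 calcium channel genes 9, 11 and 9 were called in the same direction. Cacna1e had the opposite call in WT at 18 months, and Cacna1i had it in ΔLYST-B6 at 18 months. Choroid plexus Ttr, not called here, was called in WT at 18 months alone, with 1.35 in WT at 18 months, 0.73 in ΔLYST-B6 at 3 months and 0.15 in ΔLYST-B6 at 18 months. The region by age interaction in WT mice was called in 27 of 14850 genes (0.182%), 9 with a positive and 18 with a negative term, and C1qc was among them, at 0.77 (adjusted p = 0.0380). Without replicate 2 of the 3-month animals 2 genes were called, and DESeq2 called 111. The region by genotype interaction at 3 months was called in 0 of 14741 genes (0%) in edgeR, with a smallest adjusted p of 0.993, while DESeq2 called 3. In edgeR 594 of the 14741 had an unadjusted p under 0.05. That is below the share of 0.05 which this threshold passes with no difference in any gene.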

How the data were processed

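The 6 libraries of 3 wild-type mice of 3 months, with cerebellum and forebrain from each, were analysed from the deposited table of read counts per gene, of the 24 libraries it holds. The authors aligned reads to mm10 with HISAT2 (HISAT in the processing notes), and their methods name DESeq2 as the source of the read counts. The annotation and the strand of counting are not stated. Library totals were 25296578, 27536209 and 26415004 counts for the cerebella and 20834104, 25501844 and 26136908 for the forebrains, so that an upper limit of 3 counts for a count of 0 is 0.104 to 0.150 CPM. Such limits and counting intervals cover counting error only.

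Genes with low counts were dropped by filterByExpr of edgeR (at least 10 counts, at least 15 in total), and the others were scaled with TMM and tested with the robust quasi-likelihood F test of edgeR, with the animal as a block and Benjamini-Hochberg adjustment. Pairs follow the shared label prefix of an animal. As a check, the deviations of the 2 libraries of an animal from the means of their regions correlated with r of 0.186, 0.0899 and 0.0817 over genes, against −0.111 to 0.0137 for libraries of different animals. With 3 pairs an exact permutation test cannot go below p = 0.25, so none was used for single genes. Genes were called close where the 95% interval of the log2 fold change lay within 0.5 of 0. Interactions with age or genotype were tested in 12 libraries with the same model.

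The alternatives were no block, DESeq2 size factors, library totals alone, library totals without the 10 most abundant genes (both without TMM factors), DESeq2's Wald test, limma-voom, a joint fit of the 24 libraries, a filter of 10 counts in each library, no filter, and leaving out each animal. Principal components used log2 CPM with a prior count of 2. The procedure was tested on simulated data, and no results of that are given here. Members and the 40 lists of 423 genes were chosen with earlier results of these data known, and 19 of the genes have no row of their own in the table used here. Named genes are the 15 largest differences in each direction, members of the lists, the 5 smallest p of each interaction with ties of the adjusted p, the 5 narrowest intervals, Lyst, Btaf1 and Pik3c3. Some of these genes are not reported here, while the counts and medians of lists include them. Genes in which single libraries stood apart were chosen after their values were seen. No gene with 0 counts in a region was among the tested list genes. Models were run in R 4.3.3 (DESeq2 1.42.0, limma 3.58.1, edgeR 4.0.16), and tables and figures in Python 3.11.15 (matplotlib 3.10.9, scipy 1.17.1, pandas 2.3.3, numpy 2.4.6). Gene positions and overlaps come from GENCODE M21.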

Additional observations from a re-analysis of the deposited data

Results flagged for a closer look

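A difference between groups of animals was seen in 27 genes, in which the regional difference of WT mice was not the same at 3 and 18 months in edgeR's interaction test. The 6 with the smallest adjusted p, the last 4 of them tied, follow, with values for animals 1 to 3 of each age. Rasal1, which stimulates the GTPase activity of Ras, had 32.8, 39.7 and 41.5 CPM in the cerebellum and 100.4, 99.9 and 98.1 CPM in the forebrain at 3 months, and 16.3, 15.5 and 14.3 and 105, 100.4 and 94.1 CPM at 18 months. The cerebellar values at 18 months lay below those at 3 months and the forebrain values overlapped, with an interaction of −1.30 (standard error 0.11, adjusted p = 0.00225). Tyrosine hydroxylase (Th), which makes the precursor of dopamine, had 5.67, 8.35 and 3.66 CPM in the cerebellum and 4.24, 7.79 and 5.23 CPM in the forebrain at 3 months, and 24.3, 18.1 and 16.1 and 3.35, 3.23 and 3.10 CPM at 18 months. The cerebellar values at 18 months lay above all others, with 2.57 (standard error 0.26, adjusted p = 0.00459). Of the brainstem genes, Slc6a2 was also higher in the cerebellum of WT mice at 18 months (log2 5.17, adjusted p = 3.68e-06). Dbh (log2 3.58, adjusted p = 0.104) and Tph2 (log2 0.14, adjusted p = 0.726) were not called there. Aifm3, a relative of apoptosis-inducing factor, had 478, 431 and 423 CPM in the cerebellum and 112, 106 and 105 CPM in the forebrain at 3 months, and 325, 265 and 336 and 143, 137 and 135 CPM at 18 months. The regions were nearer to each other at 18 months, with −0.89 (standard error 0.11, adjusted p = 0.0201). The same held for Jakmip3, a coiled-coil protein, with 218, 234 and 228 CPM in the cerebellum and 91.2, 97.9 and 95.7 CPM in the forebrain at 3 months, and 146, 129 and 148 and 96.0, 91.8 and 96.6 CPM at 18 months, and −0.69 (standard error 0.09, adjusted p = 0.0201). Ybx2, a Y-box protein that binds RNA, had 17.2, 19.8 and 20.2 CPM in the cerebellum and 6.63, 8.32 and 6.75 CPM in the forebrain at 3 months, and 10.9, 9.20 and 8.60 and 9.44, 9.41 and 8.65 CPM at 18 months. Its regions overlapped at 18 months but not at 3 months, with −1.34 (standard error 0.17, adjusted p = 0.0201). Vwa7, which holds a von Willebrand factor A domain, had 36.7, 32.4 and 31.5 CPM in the cerebellum and 0.797, 0.487 and 0.759 CPM in the forebrain at 3 months, and 22.1, 20.1 and 23.2 and 2.00, 1.49 and 1.42 CPM at 18 months. Its forebrain values at 18 months lay above, and its cerebellar values below, those at 3 months, with −1.89 (standard error 0.24, adjusted p = 0.0201). Groups of 3 libraries were not tested for single outliers.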

How the results depend on the processing

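The count of called genes, 8492, was 7569 to 9101 over the alternatives and 6269 to 7760 without 1 animal, and no called gene had the opposite call in any of them. Of 132 named genes that were called, 119 were called alike in each of the 12 alternatives that tested them (92 of them were tested in all), 13 lost the call in at least 1, and 5 of the 40 list medians changed sign in at least 1. With no block for the animal, where libraries are not paired, 8389 genes were called, and 4 of the named genes lost the call. With at least 10 counts in every library, which tests fewer genes, 730 genes differed 4-fold, 272 higher and 458 lower. The region by age interaction was called in 111 genes by DESeq2, in 57 with no filter, and in 2 to 31 without 1 animal, and the region by genotype interaction in 3 by DESeq2. The first principal component held 81.8% on the linear scale and 93.4% with the 500 genes of largest variance. The cause of these shifts was not tested. Signs changed only in genes that were not called. Log2 fold changes became Th 0.0864, Gad1 0.0994, Slc32a1 0.0732, Ak1 0.0893 and Eif2s3x 0.0717 with library totals alone, and Th 0.0835, Gad1 0.0967, Slc32a1 0.0705, Ak1 0.0867 and Eif2s3x 0.0691 with totals that leave out the 10 most abundant genes. They became Th 0.00629, Gad1 0.0191 and Ak1 0.00902 with no filter, Th 0.000780, Gad1 0.0130 and Ak1 0.00295 with at least 10 counts in every library, and Th 0.00475, Gad1 0.0174 and Ak1 0.00734 in a single fit of all libraries. Th had 0.00795 with no block for the paired libraries, Gad1 0.00414 with DESeq2 size factors and 0.00413 in its Wald test, and Ttr −0.50 in limma-voom. In full, leaving out 1 animal gave Lhx9 −0.11 to 2.20, Tcf7l2 −0.37 to 2.01, Prkcd −0.0837 to 0.54, Th −0.22 to 0.26, Ttr −1.27 to 1.48, Kcne2 −0.00661 to 1.99, Gad1 −0.0733 to 0.0658, Slc32a1 −0.0876 to 0.0744, Slc17a6 −1.19 to 0.55, C4b −0.11 to 0.0915 and Ak1 −0.00766 to 0.0125. With 3 animals and 20834104 to 27536209 counts a library, levels under 0.150 CPM rest on 4 counts or fewer and are uncertain.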

Other observations

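Single libraries also stood apart within their region in other genes, looked for after the values were seen. Gtpbp4, a GTPase of ribosome assembly, had 118, 186 and 475 CPM in the cerebellum and 977, 2374 and 83.6 CPM in the forebrain. Its regions overlapped, and the highest and the lowest value were both forebrains. The mitochondrial leucyl-tRNA synthetase Lars2 had 291, 141 and 154 CPM in the cerebellum and 218, 681 and 166 CPM in the forebrain, with the forebrain of animal 2 the highest. Klrb1b, a receptor of natural killer cells, had 27.6, 0.208 and 0.403 CPM in the cerebellum and 0.550, 0.162 and 0.120 CPM in the forebrain, with the cerebellum of animal 1 the highest. The mitochondrial sirtuin Sirt4 had 239, 53.4 and 51.9 CPM in the cerebellum and 25.4, 26.1 and 22.6 CPM in the forebrain, so all cerebella lay above all forebrains, and the cerebellum of animal 1 above both others. None of these differences between libraries was tested.

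Further interferon targets stood apart in the cerebellum of animal 2. Rnf213, a large ubiquitin ligase, had 13.3, 77.1 and 19.8 CPM in the cerebellum and 10.8, 12.5 and 13.5 CPM in the forebrain. The guanylate-binding protein Gbp10 had 9.98, 72.7 and 9.19 CPM in the cerebellum and 4.95, 4.82 and 4.42 CPM in the forebrain. Usp18, which removes the ubiquitin-like Isg15 from proteins, had 1.15, 12.5 and 1.43 CPM in the cerebellum and 1.05, 2.11 and 1.79 CPM in the forebrain. Isg15 itself had 1.80, 9.11 and 2.09 CPM in the cerebellum and 1.499, 2.43 and 2.87 CPM in the forebrain. In each of them the cerebellum of animal 2 was the highest library, and the other 5 libraries lay lower.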
